A study of Mus musculus with 7 samples.

Results

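The mitochondrial ribosomal proteins were examined in bone marrow samples selected for CD41 from mice infused with serotonin (5-HT) or saline. The samples are labelled megakaryocytes (MKs), the precursors of platelets. Members were chosen by name, as every gene on the array with a symbol that begins with Mrpl or Mrps and a digit, which gave 76 of 19057 measured genes. They comprised 48 large subunit (Mrpl) and 28 small subunit (Mrps) genes. The 5-HT group received 25.8 mM 5-HT from an osmotic minipump at 1.66 µg/kg/h for 24 h, and the saline group received saline the same way. All animals were C57BL/6J males of 10 to 12 weeks. There were 4 5-HT samples and 3 saline samples, each of RNA from MKs of 3 to 4 mice pooled before the magnetic anti-CD41 selection, so each value is already an average over animals and p-values measure the spread between pools. A further saline sample was removed as an outlier by the authors and was not analysed here.

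Mitochondrial ribosomes are built inside the organelle from RNAs encoded by mitochondrial DNA and from proteins encoded in the nucleus, made in the cytosol and imported. They translate the small set of messages of mitochondrial DNA, all of which code for core subunits of the respiratory chain and the ATP synthase. The large subunit holds the site of peptide bond formation and the exit tunnel, and the small subunit decodes the message. MKs pass their mitochondria on to platelets, the cells that carry most of the 5-HT of the blood.

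Signals were deposited as log2 values with the same median over all probes on every array. A gene was represented by its brightest probe and tested if its mean signal over the 7 samples was at least 7.5, which 66 of the 76 members (86.8%) and 5428 genes passed. The tested members were 41 large and 25 small subunit genes. The 10 members below that limit had mean signals between 6.62 and 7.48 and differences of -0.04 to 0.29, and were given no test. They were Mrpl19, Mrpl32, Mrpl35, Mrpl39, Mrpl45, Mrpl51, Mrpl57, Mrps14, Mrps2 and Mrps27. Mrps2 was the nearest to the limit from below, with 7.82, 7.20, 7.58 and 7.77 in 5-HT samples and 7.94, 7.07 and 6.97 in saline samples. The nearest from above was Mrps25, with 8.19, 7.5, 7.60 and 8.19 in 5-HT samples and 7.87, 7.45 and 7.75 in saline samples.

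The arrays differed from one another across the whole set of tested genes before any member was considered. The median deviation of a tested gene from its own mean was 0.64, -0.39, 0.19 and 0.25 in 5-HT samples 1 to 4, against 0.19, -0.54 and -0.37 in saline samples 1 to 3. The sample 5-HT 2 therefore lay on the low side with saline 2 and 3, and saline 1 lay on the high side with the other 5-HT samples. Itga2b, which encodes the CD41 protein used for the selection, had signals of 11.90, 9.36, 11.27 and 12.29 in 5-HT samples, against 12.15, 9.17 and 8.86 in saline samples, so the same arrays were low. Of 12 MK markers 10 were measured and 9 reached the limit. The log2 of the summed signals of all measured markers, dim ones included, spanned 13.6 to 15.7 in 5-HT samples and 13.7 to 15.6 in saline samples. Sums for other cell types below were likewise over all measured markers. The measured MK marker below the limit, Itgb3, was dim, between 6.64 and 7.15 over the 7 samples. Markers of other marrow cells were also present. All 10 neutrophil markers reached the limit, with a sum of 17.50 to 17.80 in 5-HT samples and 17.14 to 17.46 in saline samples. These sums did not overlap between the groups, and all were above every MK marker sum. Sums over different probes do not give shares of cells. Mpo alone lay between 14.83 and 15.07 in 5-HT samples and between 14.46 and 15.01 in saline samples. The eosinophil sum (2 of 6 markers at the limit) was 11 to 14.2 in 5-HT samples and 9.63 to 10.6 in saline samples, and the erythroid sum (3 of 6) was 11.6 to 13.8 in 5-HT samples and 13.03 to 14 in saline samples. For B cells (1 of 6) the sums were 10.3 to 11.5 in 5-HT and 10.1 to 10.6 in saline samples. The marker above the limit was Cd79b (9.64 to 11.35 in 5-HT and 9.54 to 10.19 in saline samples). Ms4a1, Vpreb1 and Igll1 were dim, at 6.55 to 7.41 over the 7 samples. For T and NK cells (1 of 6) the sums were 12.472 to 12.821 in 5-HT and 11.647 to 12.469 in saline samples. Here the marker above the limit was Nkg7 (12.36 to 12.74 in 5-HT and 11.45 to 12.36 in saline samples). Cd3e, Cd3g, Cd8a and Klrb1c were dim, at 6.47 to 6.97. For monocytes and macrophages (4 of 6) the sums were 9.95 to 12.4 in 5-HT and 10.2 to 12.7 in saline samples. The part of cell composition and of array differences in the results below was not tested, and in bulk samples fewer cells of a type and less RNA per cell cannot be told apart.

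The members followed the same arrays up and down, with a smaller median deviation than all tested genes on every array but 5-HT 4. Their median deviation was 0.49, -0.26, 0.05 and 0.38 in 5-HT samples 1 to 4, against 0.10, -0.42 and -0.22 in saline samples 1 to 3. All 66 tested members were above their own mean in 5-HT 1 (98.6% of all tested genes were), 38 in 5-HT 3 (68.1%) and 59 in 5-HT 4 (78.6%), but 1 member, Mrps18c, in 5-HT 2 (8.12%). In saline samples 1 to 3 the numbers were 47, 3 and 5, beside 69%, 7.5% and 11.8% of all tested genes. Thus 52 members had their lowest 5-HT value in 5-HT 2 (79.5% of all tested genes did), and 54 had their highest saline value in saline 1 (80.8% of all tested genes). The large and small subunit genes moved together on each array, and their median deviations were farthest apart in 5-HT 4, where the large subunit was lower by 0.0957.

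**Figure D1:**
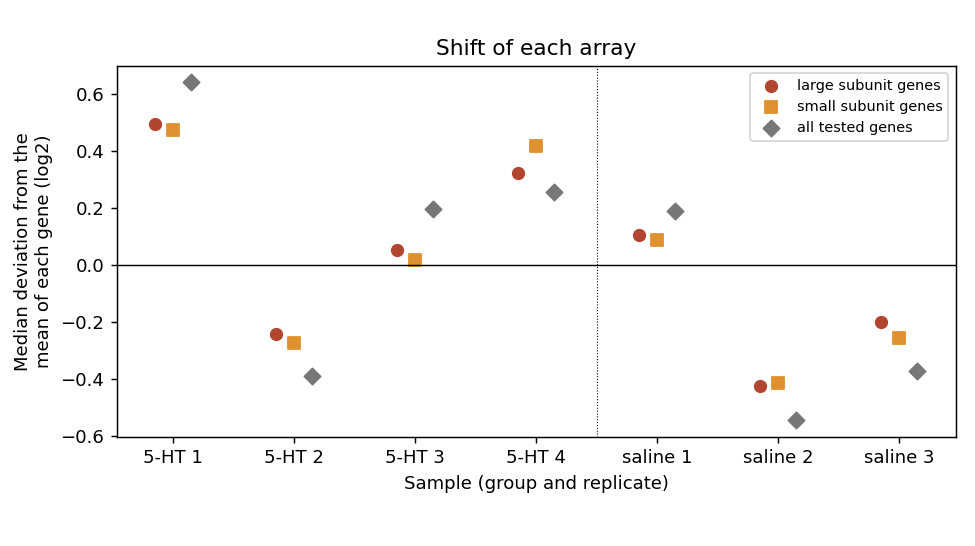
The median deviation (log2) of large subunit genes, small subunit genes and all tested genes from each gene's mean over the 7 samples, by sample. The members lie at 0.49, -0.26, 0.05 and 0.38 in the 5-HT samples and at 0.10, -0.42 and -0.22 in the saline samples, nearer to 0 than all tested genes on 6 of the 7 arrays.

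No mitochondrial ribosomal protein was found to differ between the CD41-selected samples of 5-HT-infused and saline-infused mice beyond the spread between pools. None of the 66 tested members passed an adjusted p of 0.05 (limma with Benjamini-Hochberg adjustment over all 5428 tested genes, of which 0.0% passed, the smallest adjusted p being 0.563). None had an unadjusted p under 0.05, against 311 of all tested genes. With the thresholds of the study's methods, an unadjusted p under 0.05 and more than 1.5-fold change, 0 members were called in either direction, beside 310 of all tested genes higher after 5-HT (5.71%) and 1 lower (0.0184%). The standard errors of the members lay between 0.36 and 0.43 on the log2 scale and their adjusted p-values between 0.563 and 0.948. An exact two-sided permutation test over the 35 ways of splitting 7 samples into 3 and 4 can give no p below 0.0286, and the smallest among the members was 0.0571.

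All 66 log2 fold changes were above 0 on the deposited scale, but so were 91.4% of all tested genes. The sign of the members as a group depended on the scaling between arrays. Above 0 were 22 of 66 once the arrays were shifted to a common median over the tested genes, 24 after quantile and 18 after cyclic loess normalisation. After a background correction by the normexp method of limma all 66 stayed above 0. On the deposited scale the median of the members was 0.37 (quartiles 0.23 and 0.50, range 0.04 to 0.81), against 0.42 for all tested genes. Relative to all tested genes the median member was therefore at -0.05 (-0.17 without saline 1 and 0.01 without saline 3), and 27 of the 66 members (40.9%) lay above the gene median. The SD of the members' log2 fold changes was 0.167, against 0.305 for all tested genes, and their interquartile range 0.267 against 0.373. The quartiles of the cytosolic ribosomal proteins, 0.0967 and 0.305, were closer together than those of the members. Fold changes above 1.5 were measured for 5 members and for 27.2% of all tested genes.

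**Figure D2:**
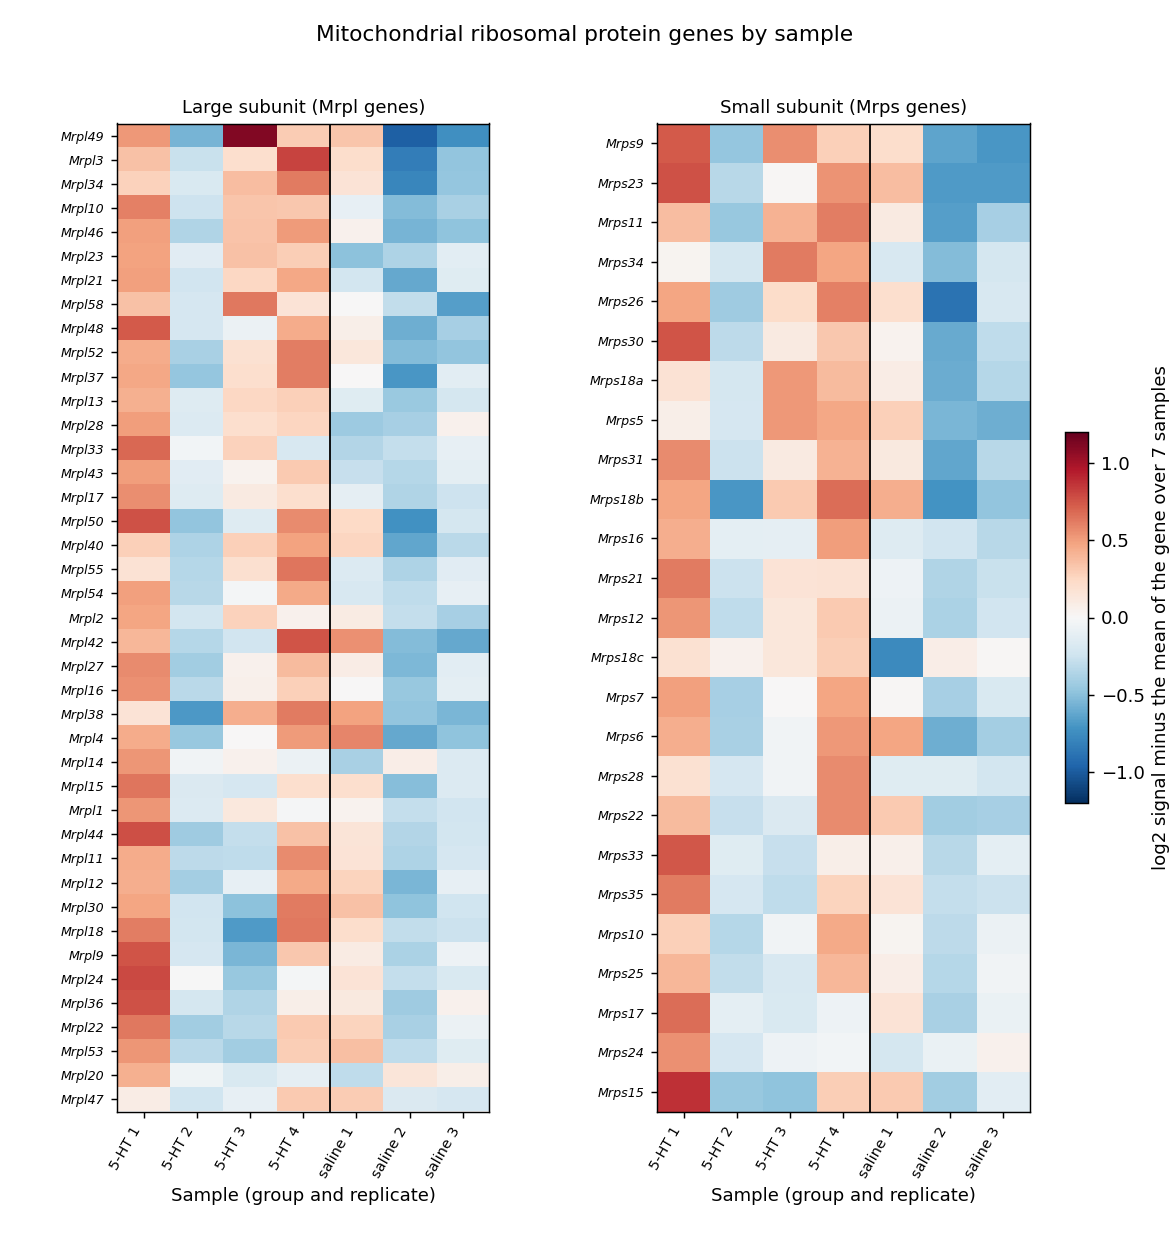
The log2 signal of each of the 66 tested members minus its mean over the 7 samples (colour), with large subunit genes on the left and small subunit genes on the right, ordered by fold change, and 5-HT samples left of saline samples. The columns of 5-HT 1 and 5-HT 4 are mostly above the mean (66 and 59 members) and those of 5-HT 2, saline 2 and saline 3 mostly below it (1, 3 and 5 members above).

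Leaving out the arrays that stood apart raised the counts both of members and of all tested genes. Without saline 1, 5 members passed the fold change and unadjusted p thresholds (Mrpl34, Mrpl3, Mrps23, Mrpl49 and Mrps9), beside 27.0% of all tested genes, and 23 had no overlap between the groups, beside 35.8%. Without 5-HT 2, 9 passed and 27 had no overlap, each beside 31.1%. Without both, 33 passed, beside 64.4%, 46 had no overlap, beside 74.9%, and 26 members passed an adjusted p of 0.05, beside 56.6%, a choice of samples made after the data were seen. Sample weights were estimated in limma from these same values, and the estimation stopped before convergence. They were lowest for 5-HT 2 (0.308) and saline 1 (0.329), so the samples left out above counted least, and highest for 5-HT 4 (3.2). With these weights 34 members passed the fold change and unadjusted p thresholds, beside 59.6% of all tested genes. An adjusted p of 0.05 was passed by 32, beside 60.4%.

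Of the 66 tested members, 1 had no overlap between the groups, Mrps16, beside 6.28% of all tested genes with every 5-HT sample above every saline sample and 0.129% with every 5-HT sample below. Mrps16 encodes a small subunit protein with a bacterial counterpart, and mutation of the human gene causes a defect of oxidative phosphorylation. Its signals were 10.42, 9.87, 9.88 and 10.49 in 5-HT samples, against 9.83, 9.75 and 9.65 in saline samples. The lowest 5-HT value exceeded the highest saline value by 0.04. The log2 fold change was 0.42 (SE 0.37, adjusted p = 0.576, limma; exact permutation p = 0.114), and on arrays shifted to a common median of the tested genes it was -0.02, with overlap. On that scale Mrps9 was the member without overlap (3.15% of all tested genes).

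Promoters of some members described here are shown, because the choice by name did not use the sequence at their start sites. RefSeq promoter windows, from 250 bases before to 50 after the start (GRCm38.p6), were matched for 67 of the 76 members, with 73 windows. Capitals mark matches, on either strand, to an ETS core (CCGGAAG, the site type of the GABP factor), to YY1 (AAGATGGC) or to the palindromic site of NRF1, factors known to bind promoters of nuclear genes for mitochondrial proteins. The windows are at chr14:20393441-20393740 (minus strand) for Mrps16, chr19:6057706-6058005 (minus) for Mrpl49, chr17:46110754-46111053 (plus) for Mrps18a and chr7:28741772-28742071 (minus) for Mrps12, each printed 5′ to 3′ along its gene.
Mrps16: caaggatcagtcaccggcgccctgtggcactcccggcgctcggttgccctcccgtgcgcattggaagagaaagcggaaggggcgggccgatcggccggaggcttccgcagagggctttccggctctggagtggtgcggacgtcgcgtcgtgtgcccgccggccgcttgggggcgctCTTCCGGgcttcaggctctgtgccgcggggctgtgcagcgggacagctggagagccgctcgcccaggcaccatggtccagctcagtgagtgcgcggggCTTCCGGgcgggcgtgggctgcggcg
Mrpl49: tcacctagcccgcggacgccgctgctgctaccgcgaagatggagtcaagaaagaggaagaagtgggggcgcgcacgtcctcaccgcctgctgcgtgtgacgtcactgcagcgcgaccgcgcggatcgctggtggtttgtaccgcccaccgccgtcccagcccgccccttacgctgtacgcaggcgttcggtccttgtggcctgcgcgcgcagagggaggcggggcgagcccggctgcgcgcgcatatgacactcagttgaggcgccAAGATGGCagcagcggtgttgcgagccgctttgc
Mrps18a: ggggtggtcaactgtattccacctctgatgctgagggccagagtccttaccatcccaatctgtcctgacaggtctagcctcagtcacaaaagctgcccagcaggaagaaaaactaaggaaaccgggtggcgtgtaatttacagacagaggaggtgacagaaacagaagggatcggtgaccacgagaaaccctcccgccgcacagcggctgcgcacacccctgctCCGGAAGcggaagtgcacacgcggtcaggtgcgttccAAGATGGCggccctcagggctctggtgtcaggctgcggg
Mrps12: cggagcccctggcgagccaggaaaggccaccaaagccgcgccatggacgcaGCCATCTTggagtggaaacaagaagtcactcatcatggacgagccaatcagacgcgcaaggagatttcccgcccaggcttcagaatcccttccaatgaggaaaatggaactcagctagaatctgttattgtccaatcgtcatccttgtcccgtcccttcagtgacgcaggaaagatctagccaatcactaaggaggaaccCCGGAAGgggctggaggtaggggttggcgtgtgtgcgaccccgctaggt

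Mrps16 held 2 ETS cores in this window and none in a second annotated window, Mrpl49 held 1 YY1 match, and Mrps18a and Mrps12 held 1 of each. Every printed window thus held a match. The windows of Mrpl10, Mrpl12, Mrpl20, Mrpl23, Mrpl46, Mrpl47, Mrps9, Mrps10, Mrps15, Mrps17, Mrps25 and Mrps30 held no ETS, YY1 or NRF1 match. An ETS core was found in 35.6% of the members' windows, beside 20.3% of windows of tested genes and 8.86% of all windows in the table. The YY1 letters were found in 16.4%, beside 4.72% and 2.75%, and the NRF1 letters in 4.11%, beside 2.06% and 0.971%. General promoter elements did not show that pattern. The GC box (GGGCGG) was found in 52.1% of the members' windows, 64.0% of those of tested genes and 35.7% of all windows, CCAAT in 38.4%, 38.4% and 37.4%, and TATAAA in 6.85%, 7.35% and 13.6%. All letters were searched on both strands, and none of these motifs contains another. By subunit, ETS cores were in 31.9% of large and 42.3% of small subunit windows, and YY1 letters in 12.8% and 23.1%.

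The ETS and YY1 matches lay mostly near the start site. Of 31 ETS cores 23 (74.2%) lay within 50 bases of it, beside 61.9% in tested genes, and of 12 YY1 matches 9 (75%), beside 62.9%. Of the 3 NRF1 matches 1 did (33.3%), beside 57.7%. The fold changes of members with and without an ETS core, or a YY1 match, overlapped in range, and no difference was tested. Tested members with an ETS core (n = 23) had a median log2 fold change of 0.427 and those without (n = 35) 0.331. For YY1 the medians were 0.397 with the match (n = 9) and 0.393 without (n = 49). A match is a description of the letters and not a measured binding site.

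**Figure D3:**
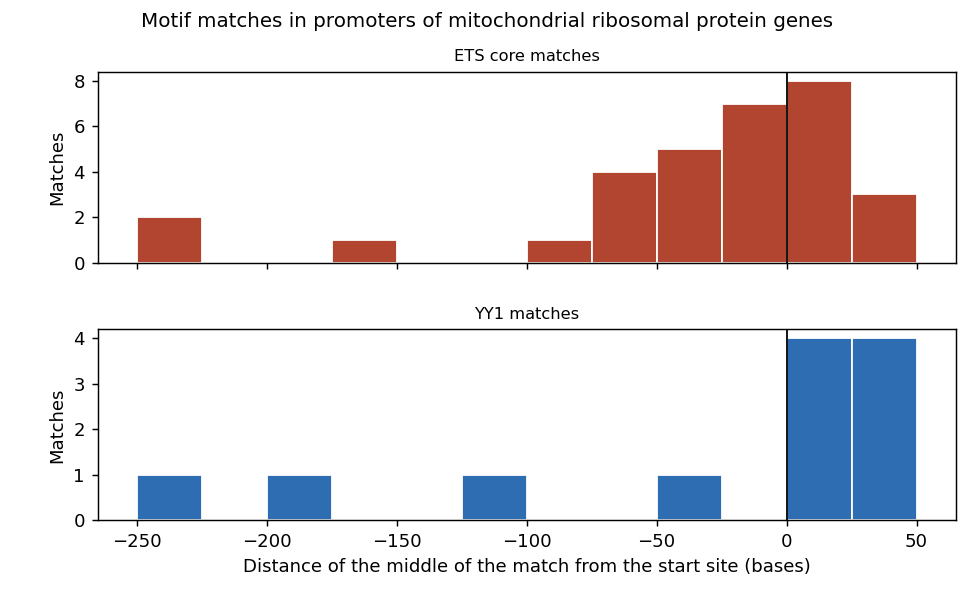
Number of ETS core matches (top) and YY1 matches (bottom) in bins of 25 bases by distance from the start site, over the members' promoter windows. The bins nearest the start hold most matches, with 23 of 31 ETS cores and 9 of 12 YY1 matches within 50 bases.

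Among large subunit genes the highest fold change was that of Mrpl49, a protein without a bacterial counterpart, at a log2 value of 0.81 (SE 0.43, adjusted p = 0.563, limma). Its signals were 9.52, 8.44, 10.11 and 9.30 in 5-HT samples, against 9.33, 8.02 and 8.26 in saline samples. Saline 1 lay inside the range of the 5-HT samples and above 5-HT 2 and 5-HT 4. The SD within each group was about as large as the difference, 0.692 in 5-HT and 0.697 in saline samples. The other probes of Mrpl49, all below the limit, gave 0.08, 0.29 and 0.02, and the mean of its probes gave 0.30. Mrpl3, the counterpart of a bacterial protein beside the peptidyl transferase centre, had signals of 9.64, 9.02, 9.49 and 10.10 in 5-HT samples, against 9.5, 8.46 and 8.82 in saline samples. Its log2 fold change was 0.64 by this probe and -0.03 by a second probe above the limit. Mrpl34 had signals of 10.04, 9.58, 10.13 and 10.39 in 5-HT samples, against 9.93, 8.98 and 9.30 in saline samples, a log2 fold change of 0.63. Here saline 1 alone was within the range of the 5-HT samples.

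Mrpl10, at the base of the stalk that recruits translation factors, had signals of 10.73, 9.88, 10.46 and 10.45 in 5-HT samples, against 10.03, 9.61 and 9.74 in saline samples. The log2 fold change was 0.59 (SE 0.37, adjusted p = 0.563, limma; exact permutation p = 0.0857), and a second probe gave 0.68. The groups overlapped only through 5-HT 2 and saline 1. Mrpl46, a mitochondria-specific protein, had signals of 9.63, 8.78, 9.48 and 9.65 in 5-HT samples, against 9.19, 8.58 and 8.65 in saline samples, and a log2 fold change of 0.58. Mrpl23, at the tunnel exit, had the same log2 fold change of 0.58 from 12.09, 11.47, 11.96 and 11.91 in 5-HT samples, against 11.12, 11.24 and 11.48 in saline samples. For Mrpl23 saline 1 was the lowest sample, and the overlap was of 5-HT 2 with saline 3 by 0.01.

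The lowest large subunit fold changes were those of Mrpl47, Mrpl20 and Mrpl53. Mrpl47 had signals of 7.97, 7.64, 7.78 and 8.20 in 5-HT samples, against 8.19, 7.71 and 7.68 in saline samples, a log2 fold change of 0.04. Mrpl20, the counterpart of a bacterial protein needed early in assembly of the large subunit, had signals of 11.37, 10.89, 10.76 and 10.83 in 5-HT samples, against 10.64, 11.09 and 11.01 in saline samples. Its log2 fold change of 0.05 was smaller than the SD within either group (0.277 in 5-HT and 0.24 in saline samples), and saline 1 was again the lowest sample. Mrpl53 had signals of 8.58, 7.72, 7.63 and 8.34 in 5-HT samples, against 8.41, 7.74 and 7.90 in saline samples, a log2 fold change of 0.05. All of these groups overlapped across most of their range. Mrpl12, the stalk protein, which in humans also binds the mitochondrial RNA polymerase, had signals of 10.21, 9.36, 9.67 and 10.23 in 5-HT samples, against 10.04, 9.22 and 9.67 in saline samples. Its log2 fold change was 0.22 (SE 0.38, adjusted p = 0.723, limma), and lay between 0.0125, without saline 2, and 0.4225, without saline 1, when single samples were left out.

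Among small subunit genes Mrps9 was the highest, with signals of 9.53, 8.33, 9.35 and 9.08 in 5-HT samples, against 9.0, 8.16 and 8.09 in saline samples. The log2 fold change was 0.66 (SE 0.40, adjusted p = 0.563, limma). Mrps9 overlapped only because 5-HT 2 lay below saline 1. Mrps23, without a bacterial counterpart, had signals of 10.04, 8.94, 9.29 and 9.81 in 5-HT samples, against 9.64, 8.59 and 8.59 in saline samples, a log2 fold change of 0.58. Mrps11, of the platform, had 8.87, 8.04, 8.92 and 9.11 in 5-HT samples, against 8.61, 7.84 and 8.10 in saline samples, a log2 fold change of 0.55. A second probe above the limit gave 0.26 for Mrps11 and 0.53 for Mrps23. Mrps34, mutated in a human mitochondrial disease, had 10.64, 10.40, 11.23 and 11.08 in 5-HT samples, against 10.42, 10.09 and 10.40 in saline samples, a log2 fold change of 0.53. In Mrps34, 5-HT 2 was level with saline 3 and 0.02 below saline 1, and the other 5-HT samples were above every saline sample.

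The lowest small subunit fold changes were those of Mrps15, Mrps24 and Mrps17, at log2 values of 0.13, 0.15 and 0.18. Mrps15 had signals of 9.49, 8.16, 8.13 and 8.91 in 5-HT samples, against 8.93, 8.20 and 8.49 in saline samples, so 5-HT 2 and 5-HT 3 were below every saline sample. Mrps24 had 11.98, 11.23, 11.37 and 11.40 in 5-HT samples, against 11.22, 11.35 and 11.48 in saline samples. Mrps17 had 10.90, 10.11, 10.05 and 10.17 in 5-HT samples, against 10.40, 9.84 and 10.15 in saline samples. In all 3 genes 5-HT 1 was the highest sample. Mrps12, the counterpart of the bacterial protein of the decoding centre, had 11.18, 10.35, 10.79 and 10.96 in 5-HT samples, against 10.58, 10.27 and 10.42 in saline samples, a log2 fold change of 0.40 (SE 0.37, adjusted p = 0.586, limma).

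Mrps18a and Mrps30 carry small subunit names but are built into the large subunit. Mrps18a had signals of 9.31, 8.92, 9.65 and 9.51 in 5-HT samples, against 9.22, 8.54 and 8.79 in saline samples, a log2 fold change of 0.50. Mrps30 had 10.47, 9.40, 9.82 and 10.04 in 5-HT samples, against 9.76, 9.11 and 9.41 in saline samples, a log2 fold change of 0.51. In both genes 5-HT 2 was the one 5-HT sample below a saline value. Mrps18c, a paralogue of Mrps18a chosen after its values were seen, had the smallest exact permutation p of the members (0.0571, or 0.575 adjusted over all tested genes). Its signals of 12.11, 11.98, 12.06 and 12.22 in 5-HT samples overlapped with 11.16, 12.00 and 11.94 in saline samples only through 5-HT 2 and saline 2. Saline 1, which was the highest saline sample for most members, was the lowest for Mrps18c by 0.78, as it was for 6 other members (Mrpl14, Mrpl20, Mrpl23, Mrpl28, Mrpl33 and Mrps24), beside 11.3% of all tested genes. Without saline 1 the difference of Mrps18c was 0.12.

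**Figure D4:**
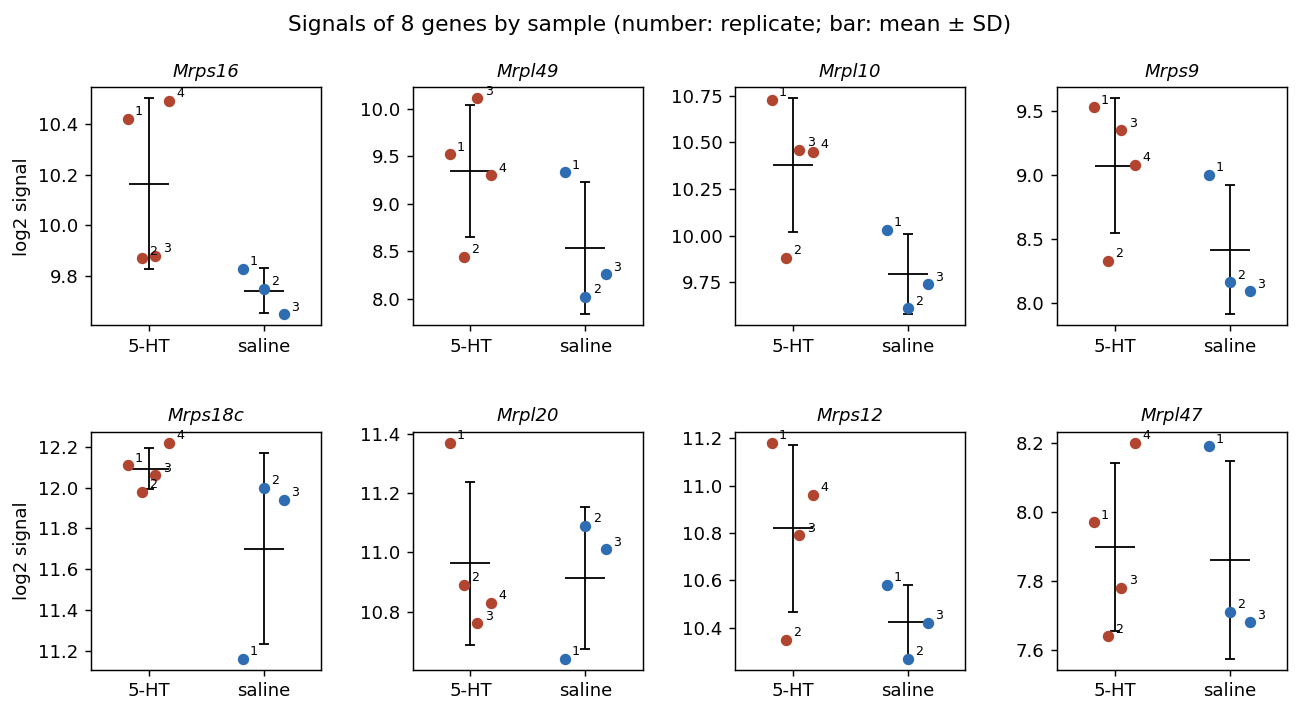
Log2 signal of 8 members in each 5-HT (left) and saline (right) sample, numbered by replicate, with the group mean and SD as bars. The groups are apart in Mrps16, by 0.04, and overlap in the other 7 genes, with 5-HT 2 below saline 1 in Mrpl49, Mrpl10 and Mrps9.

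The large and small subunit did not stand apart. The median log2 fold change was 0.34 over the 41 large subunit genes (quartiles 0.24 and 0.48) and 0.40 over the 25 small subunit genes (quartiles 0.23 and 0.50), and the difference of -0.06 was -0.05 with Mrps18a and Mrps30 counted as large subunit proteins. Of the large subunit genes 16, and of the small subunit genes 11, lay above the median of all tested genes. Grouped by ancestry, a division chosen after the values were seen, the 25 members without a bacterial counterpart had a median of 0.44 and the 41 shared with bacteria a median of 0.33. The order held within the large subunit (0.42 over 14 genes and 0.30 over 27) and within the small subunit (0.49 over 11 and 0.36 over 14). The difference of 0.11 lay between 0.035 and 0.31 over 19 settings, which include the main one and those that leave out samples. No limit on signal, trend and robust moderation and shifted arrays cannot change this difference (0.1067 in each), so they do not probe it. The difference by ancestry is a description with no test, since genes on the same arrays are not independent replicates.

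**Figure D5:**
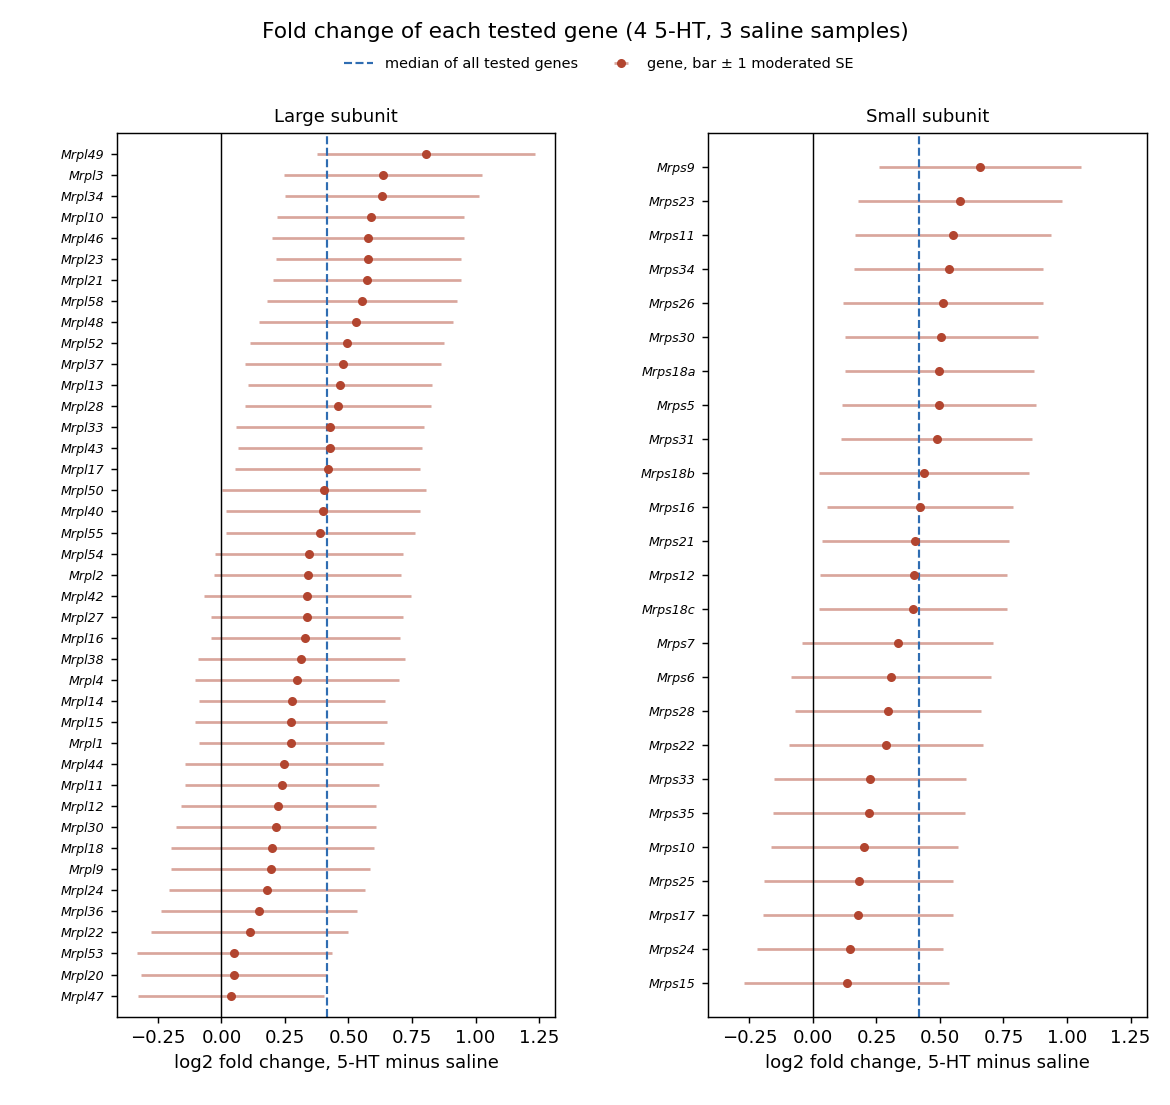
Log2 fold change (5-HT minus saline) of each tested large (left) and small (right) subunit gene with a bar of 1 moderated SE on each side. The blue dashed line is the median of all tested genes (0.42), which 27 of 66 members exceed, and the bars, of 0.36 to 0.43, exceed the differences between most neighbouring genes.

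The array held 132 probes for the 76 members, with several probes for 33 members and 1 for 43. More than 1 probe reached the limit in 17 genes, giving 19 comparisons of a further probe with the brightest. The fold changes differed by less than 0.2 in 13 of these, with a median gap of 0.0808. Opposite signs were seen in Mrpl3, above, and in Mrps10, with 0.20 by the brightest probe, 0.28 by another probe and -0.01 by the last. Mrps10 had signals of 9.49, 8.86, 9.16 and 9.66 in 5-HT samples, against 9.24, 8.89 and 9.14 in saline samples by its brightest probe. For Mrpl48, chosen after its values were seen, the brightest probe gave 0.53 and the others 0.09 and 0.01.

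No other gene of mitochondrial gene expression on the lists examined passed an adjusted p of 0.05. Among mitoribosomal proteins with other names, 2 of 4 measured genes were tested, Dap3 at a log2 fold change of 0.56 and Chchd1 at -0.02. Of 15 mitochondrial translation factors 7 were tested (median 0.16), with the elongation factors Tufm at 0.79 and Tsfm at 0.38 and the ribosome recycling factor Gfm2 at 0.42. Tufm, which delivers aminoacyl-tRNA to the ribosome, had signals of 10.87, 9.91, 11.17 and 11.21 in 5-HT samples, against 10.82, 9.59 and 9.59 in saline samples. The overlap was again of 5-HT 2 with saline 1. Of 21 aminoacyl-tRNA synthetase and amidotransferase genes 12 were tested (median 0.35), led by Fars2 (0.64), Gatc (0.57) and Vars2 (0.54).

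Of 21 measured genes for mitoribosome assembly and rRNA modification 13 were tested (median 0.33). Of these 1, Rbfa, passed the fold change and unadjusted p thresholds, beside 5.71% of all tested genes higher after 5-HT. Rbfa, a maturation factor of the small subunit, had signals of 12.11, 10.94, 12.08 and 11.68 in 5-HT samples, against 11.22, 10.72 and 10.66 in saline samples. Its log2 fold change was 0.84 (SE 0.39, adjusted p = 0.563, limma), with 5-HT 2 below saline 1. Mterf4 was the gene of the list without overlap. Every 5-HT sample was above every saline sample in 6.28% of all tested genes. Mterf4 had signals of 10.10, 9.14, 9.70 and 9.5 in 5-HT samples, against 8.95, 8.68 and 9.07 in saline samples. The log2 fold change was 0.71 (SE 0.37, adjusted p = 0.563, limma). Noa1, a GTPase of assembly, was at 0.53. Of 10 genes for mitochondrial DNA transcription and replication 4 were tested (median 0.29), among them Polrmt at 0.33, Polg at 0.32 and Tfam at 0.26. Of 10 regulators of mitochondrial biogenesis 3 were tested, Nrf1 at 0.75, Esrra at 0.40 and Sp1 at 0.14. Yy1 was dim, at 6.53 to 6.64 in 5-HT samples and 6.57 to 6.74 in saline samples, and was not tested. The GABP genes were below the limit too and not tested. Gabpa lay at 7.03 to 7.11 in 5-HT samples and 6.83 to 7.12 in saline samples. Gabpb1 lay at 7.21 to 7.73 in 5-HT samples and 7.12 to 7.40 in saline samples.

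Set beside related families on the deposited scale, the median fold change of the mitochondrial ribosomal proteins (0.37) was above that of the cytosolic ribosomal proteins and of the respiratory chain, and below that of all tested genes, which turned without saline 3. The 49 tested cytosolic ribosomal proteins (of 61) had 0.18 as their median log2 fold change, with 8 above the median of all genes and 5 without overlap between groups (6.28% of all tested genes had every 5-HT sample above every saline sample). The 73 tested respiratory chain and ATP synthase genes (of 86), which include the nuclear partners of the products of mitochondrial translation, had a median of 0.30, with 26 above the gene median and 11 without overlap, beside the same 6.28%, and in both families these genes were higher in 5-HT samples. No gene of either family passed the fold change and unadjusted p thresholds, as no mitochondrial ribosomal protein did. These medians are descriptions, and no difference between the families was tested.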

How the data were processed

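RNA of CD41-selected cells, labelled MKs, from 4 pools of 5-HT-infused and 3 pools of saline-infused mice was hybridised by the authors to Illumina mouse arrays. The deposited values are log2 signals, log-transformed and median-normalised by the authors, and a background correction is not given in the sources used here. The array annotation named 1 gene for 34885 of 45281 probes, several for 18 and none for 10378. The 14 value columns of the unnormalised table carry names that match no sample and were not used. Symbols were matched to a RefSeq table of GRCm38.p6, in which all 76 members were found.

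Each gene was represented by its brightest probe with a single gene symbol, and genes with a mean log2 signal of at least 7.5 were tested with limma 3.58.1 (lmFit and eBayes, R 4.3.3), with Benjamini-Hochberg adjustment over 5428 genes. The fit had 5 residual and 18.9 prior degrees of freedom. Groups were those of the labels, and the few pools limit the precision. The script was tested on simulated data. Single genes were also compared by exact permutation of samples. Tables and figures were made with pandas 2.3.3 and matplotlib 3.10.9.

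The members and lists were chosen with earlier results of these data known. The genes named are those past a threshold or without overlap, the 6 Mrpl and 4 Mrps genes with the highest and the 3 of each with the lowest fold change, Mrps30, Mrps18a, Mrpl12 and Mrps12 for their roles, genes whose probes disagree in sign, the genes nearest the limit on signal, and up to 3 genes with the largest fold change of each other list. Alternatives were other normalisations, limits on signal, probe rules, moderation, sample weights, a replicate block, and leaving out each sample.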

Additional observations from a re-analysis of the deposited data

Results flagged for a closer look

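In the 5-HT samples, Mrps17, a small subunit protein, had 1 sample far from the others. Its signals were 10.90 in 5-HT 1 and 10.11, 10.05 and 10.17 in the other 5-HT samples, against 10.40, 9.84 and 10.15 in the saline samples. The gap of 5-HT 1 to its nearest neighbour was 0.859 of the whole range of the group, above the critical value of Dixon's test for 4 samples. Chance alone gives such a gap in about 1 of 20 groups. Mrps17 was the only one of the 66 tested members with such a gap, beside 5.97% of all tested genes, and 5-HT 1 was also the array on which every tested member, and 98.6% of all tested genes, lay above their own mean. Without 5-HT 1 the log2 fold change of Mrps17 was -0.02, against 0.18 with all samples.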

How the results depend on the processing

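The precision is limited by 7 pools and by arrays that differ across all genes. With standard errors of 0.36 to 0.43, differences of the size measured for the members were not detectable, and nothing was tested for the 10 dim members. The deposited scale fixes the sign of small fold changes. The cause of the changes listed next was not tested, apart from those that follow from the number of genes or samples used.

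The count of members past the fold change and unadjusted p thresholds was 0 with all samples (311 of 5428 genes). It was 1 with no limit on signal (454 of 19057 genes) and 1 with the mean of all probes (357 of 5428 genes). With sample weights it was 34, beside 59.6% of all tested genes. Without saline 1 and 5-HT 2 together it was 33, beside 64.4%. When single samples were left out it lay between 0 and 9. It was 9 without 5-HT 2 (31.1% of all tested genes) and 5 without saline 1 (27.0%). The count past an adjusted p of 0.05 was 32 with sample weights and 26 without both samples, and 0 otherwise. The estimation of the weights stopped before convergence. The median log2 fold change of members, 0.37, was -0.0506 after quantile normalisation, -0.0839 after cyclic loess and -0.0725 with arrays shifted to the median of the tested genes. After the normexp background correction this median was 0.4253. Relative to all tested genes, -0.05, it was 0.33 with no limit on signal, where mostly dim genes set the comparison, and -0.215 without saline 1 and 5-HT 2. It was also 0.03 with the mean of all probes, -0.126 after quantile normalisation, -0.116 after cyclic loess and -0.113 with a limit of 8.5, and lay between -0.166, without saline 1, and 0.0125, without saline 3, when single samples were left out. The difference between subunits, -0.06, was 0.003037 after cyclic loess, 0.001667 with a limit of 8.5 and -0.000117 with sample weights, and -0.1 to 0.025 when single samples were left out. The median of all tested genes, 0.42 as deposited, was 0.08 after quantile normalisation, 0.03 after cyclic loess and -0.02 on shifted arrays.

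With the replicate number as a block, which leaves 5-HT 4 without a partner, 2 members passed the fold change and unadjusted p thresholds. They were Mrpl49 and Mrps9, beside 22.6% of all tested genes. Of the members 0 passed an adjusted p of 0.05, beside 45 of 5428 tested genes. Same-numbered samples did not deviate together in every pair (r over genes 0.145 for number 1, 0.684 for number 2 and -0.247 for number 3), so the numbers were not taken to pair the samples. With this replicate block Mrpl47 was at -0.0633 and Mrpl53 at -0.04.

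Of 410 comparisons of 23 named members with an alternative, 336 kept direction and side of the threshold, 23 moved past it and 51 changed sign. The sign changed for 11 genes each after quantile normalisation, after cyclic loess and on shifted arrays. It changed for 0 genes after the normexp background correction. After quantile normalisation, log2 fold changes were -0.25 for Mrpl12, -0.42 for Mrpl20, -0.21 for Mrpl47, -0.24 for Mrpl53, -0.22 for Mrps10, -0.10 for Mrps12, -0.25 for Mrps15, -0.0421 for Mrps16, -0.32 for Mrps17, -0.30 for Mrps24 and -0.0627 for Mrps25. After cyclic loess they were -0.26 for Mrpl12, -0.45 for Mrpl20, -0.27 for Mrpl47, -0.29 for Mrpl53, -0.26 for Mrps10, -0.10 for Mrps12, -0.28 for Mrps15, -0.0728 for Mrps16, -0.32 for Mrps17, -0.34 for Mrps24 and -0.11 for Mrps25. On shifted arrays they were -0.22 for Mrpl12, -0.39 for Mrpl20, -0.40 for Mrpl47, -0.39 for Mrpl53, -0.24 for Mrps10, -0.0433 for Mrps12, -0.31 for Mrps15, -0.0183 for Mrps16, -0.26 for Mrps17, -0.29 for Mrps24 and -0.26 for Mrps25. Mrpl20 was at -0.16 with sample weights, -0.0633 without saline 1 and 5-HT 2, and -0.0158 by the mean of its probes. When single samples were left out, Mrpl20 lay between -0.0875 and 0.14, Mrpl47 between -0.0633 and 0.20, Mrpl53 between -0.12 and 0.25, Mrps15 between -0.14 and 0.33, Mrps17 between -0.02 and 0.31, and Mrps24 between -0.0167 and 0.23.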
